A study of Mus musculus with 35 samples.

Results

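The genes described here are 10 imprinted genes that act in growth or are noncoding RNAs of imprinted clusters. They were taken by symbol from a table of raw mRNA counts for 55401 genes, and all 10 passed the filter on low counts (at least 0.5 CPM, counts scaled to a common library size, in at least 5 mice) that 17612 genes passed. They are H19 and Igf2 on distal chromosome 7, Cdkn1c on the same chromosome, Peg3 on proximal chromosome 7, Dlk1, Meg3, Rian and Mirg on chromosome 12, Plagl1 on chromosome 10 and Grb10 on chromosome 11. The libraries were made from CD45+ cells that bound to antibody-coated dishes, a step called immunopanning, after dissociation of the whole brain of wild-type C57BL/6 mice, and 1 library was made per mouse. Mice were postnatal day 6 (P6), postnatal day 15 (P15) or 8 weeks old, and the comparisons ask how microglial expression changes between early life and adulthood. The 34 mice compared were 4 females and 6 males at P6, 6 females and 6 males at P15, and 6 females and 6 males at 8 weeks. P6 female 6, in which several marker sums lay outside those of the other P6 mice, was kept out of the comparisons and is described apart. The study removed an outlier mouse that it does not name, and whether it was this one is not given in the sources used here. CD45 is carried by all white blood cells, so the isolation does not part microglia from border macrophages or blood cells, and the study's protocol removed the meninges by hand. By comparison with single-cell profiles, the study estimated a small average share of monocytes and macrophages per sample. Its qPCR of a P6 mouse found microglial markers enriched and markers of other brain cells low.

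Imprinted genes are transcribed mainly from the chromosome inherited from 1 parent, under control of DNA methylation that is set in the egg or sperm. Many act on fetal and early postnatal growth: Igf2 is a growth factor, H19 is a noncoding RNA from the neighbouring gene that is read from the opposite parental chromosome, Cdkn1c and Grb10 restrain growth, and Plagl1 and Peg3 encode zinc-finger proteins. In the Dlk1-Meg3 cluster the noncoding RNAs Meg3, Rian and Mirg are read from the maternal chromosome and carry small nucleolar RNAs and microRNAs, while the protein-coding Dlk1 is read from the paternal one. C57BL/6 mice are inbred, so these counts do not separate the parental copies.

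Libraries held 23316107 to 38965078 counts on genes, so that 3 counts, used here as the floor, came to between 0.0770 and 0.129 CPM. The microglial markers Tmem119, P2ry12, Sall1, Cx3cr1 and Fcrls summed to 4654 to 8502 CPM at P6, 9737 to 18955 at P15 and 12138 to 17065 at 8 weeks, and all 5 rose from P6 to P15. Markers of other brain cells were measured in the same libraries, and none of the lists had a marker at 0 counts in every mouse. The 9 markers of neural progenitors and immature neurons summed to 661 to 2037 CPM at P6, 124 to 845 at P15 and 89.0 to 206 at 8 weeks, and 9 of 9 fell in each comparison of ages. The 6 neuronal markers summed to 276 to 926, 89.5 to 693 and 48.4 to 212 CPM at the 3 ages, and from P6 to P15 2 of them fell (Tubb3 and Stmn2) and 2 rose (Snap25 and Syt1). From P15 to 8 weeks 5 of the 6 fell and none rose, and from P6 to 8 weeks 4 fell and 1 rose (Snap25). The 6 astrocyte markers summed to 338 to 856, 707 to 6250 and 1452 to 4318 CPM, and the 6 markers of fibroblasts and leptomeninges to 78.5 to 293, 76.3 to 276 and 15.9 to 76.7. The plot of marker sums shows each mouse. In bulk libraries, fewer cells of a type and less RNA per cell cannot be told apart.

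**Figure D1:**
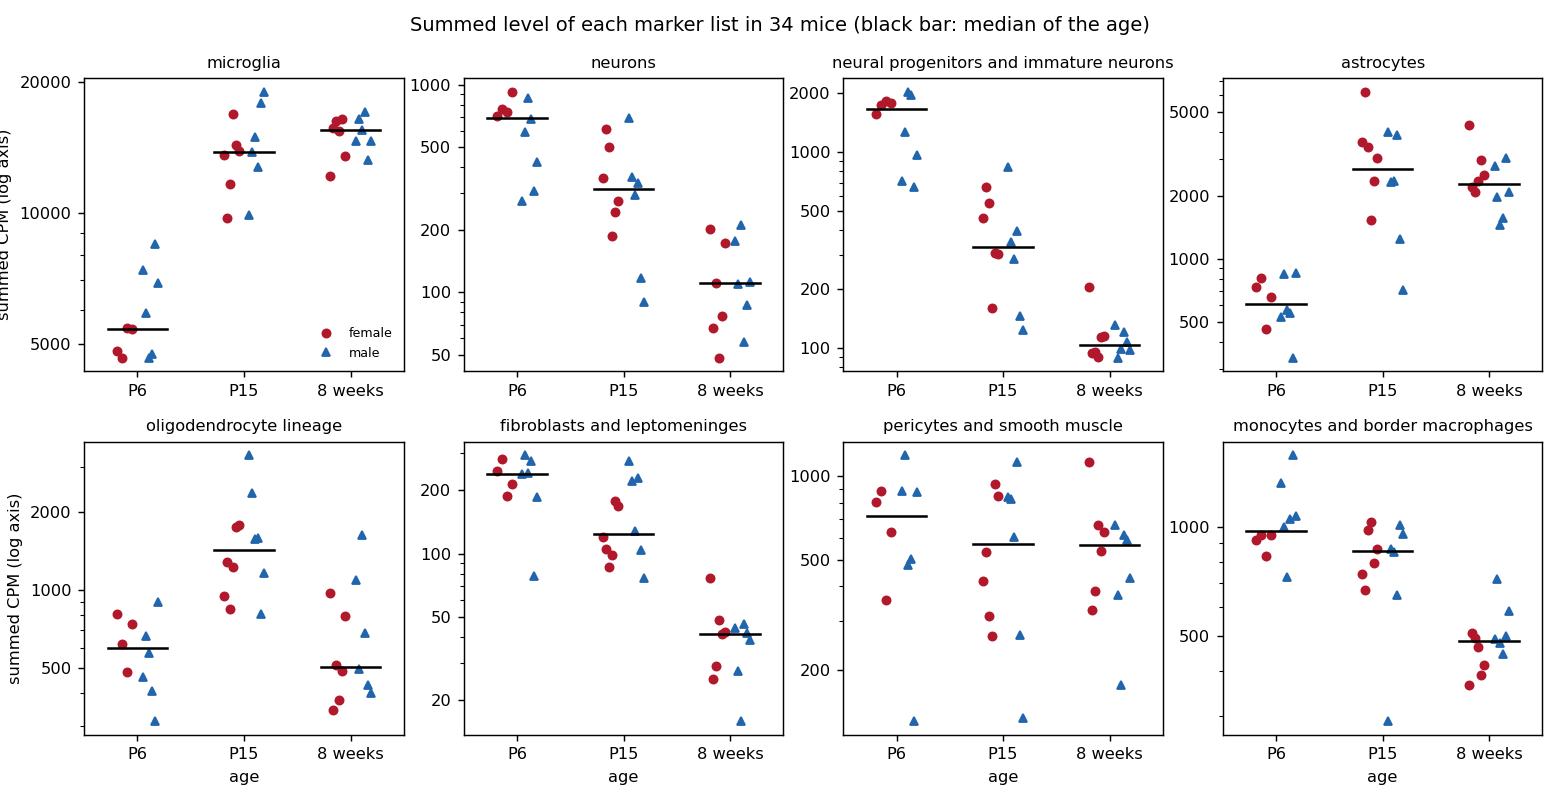
Each panel plots the summed TMM-scaled CPM of 1 marker list (vertical log axis) against age, with 1 point per mouse (red circles female, blue triangles male) and a black bar at the median. The progenitor sum fell at each step of age, from a median of 1658 CPM at P6 to 326 at P15 and 103 at 8 weeks, while the microglial sum rose from 5423 to 13826 and 15463.

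Across the 10 genes the change with age was almost entirely a decrease. From P6 to P15 the levels of 7 genes fell and none rose (edgeR's quasi-likelihood test, glmQLFTest, with Benjamini-Hochberg adjustment over all genes tested, an adjusted p that is called FDR below, under 0.05), beside 31.4% of all genes tested that fell and 30.4% that rose. From P15 to 8 weeks 4 fell and 1 rose, beside 23.9% and 24.0% of all genes. From P6 to 8 weeks 7 fell and none rose, beside 36.6% and 37.8%. Past a change of 2-fold (edgeR's glmTreat), 4 genes fell from P6 to P15 (H19, Dlk1, Plagl1 and Grb10), beside 4.85% of all genes, 2 fell from P15 to 8 weeks (H19 and Igf2), beside 3.07%, and 5 fell from P6 to 8 weeks (H19, Igf2, Dlk1, Plagl1 and Grb10), beside 12.4%. No member rose past 2-fold in a comparison, where 4.87%, 1.20% and 11.5% of all genes did. The median log2 fold change (log2FC) of the 10 genes was -0.79, -0.31 and -1.75 in the 3 comparisons, and that of all genes tested was -0.014, 0.018 and 0.038. The 3 comparisons share mice, so their counts are not independent of each other.

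**Figure D2:**
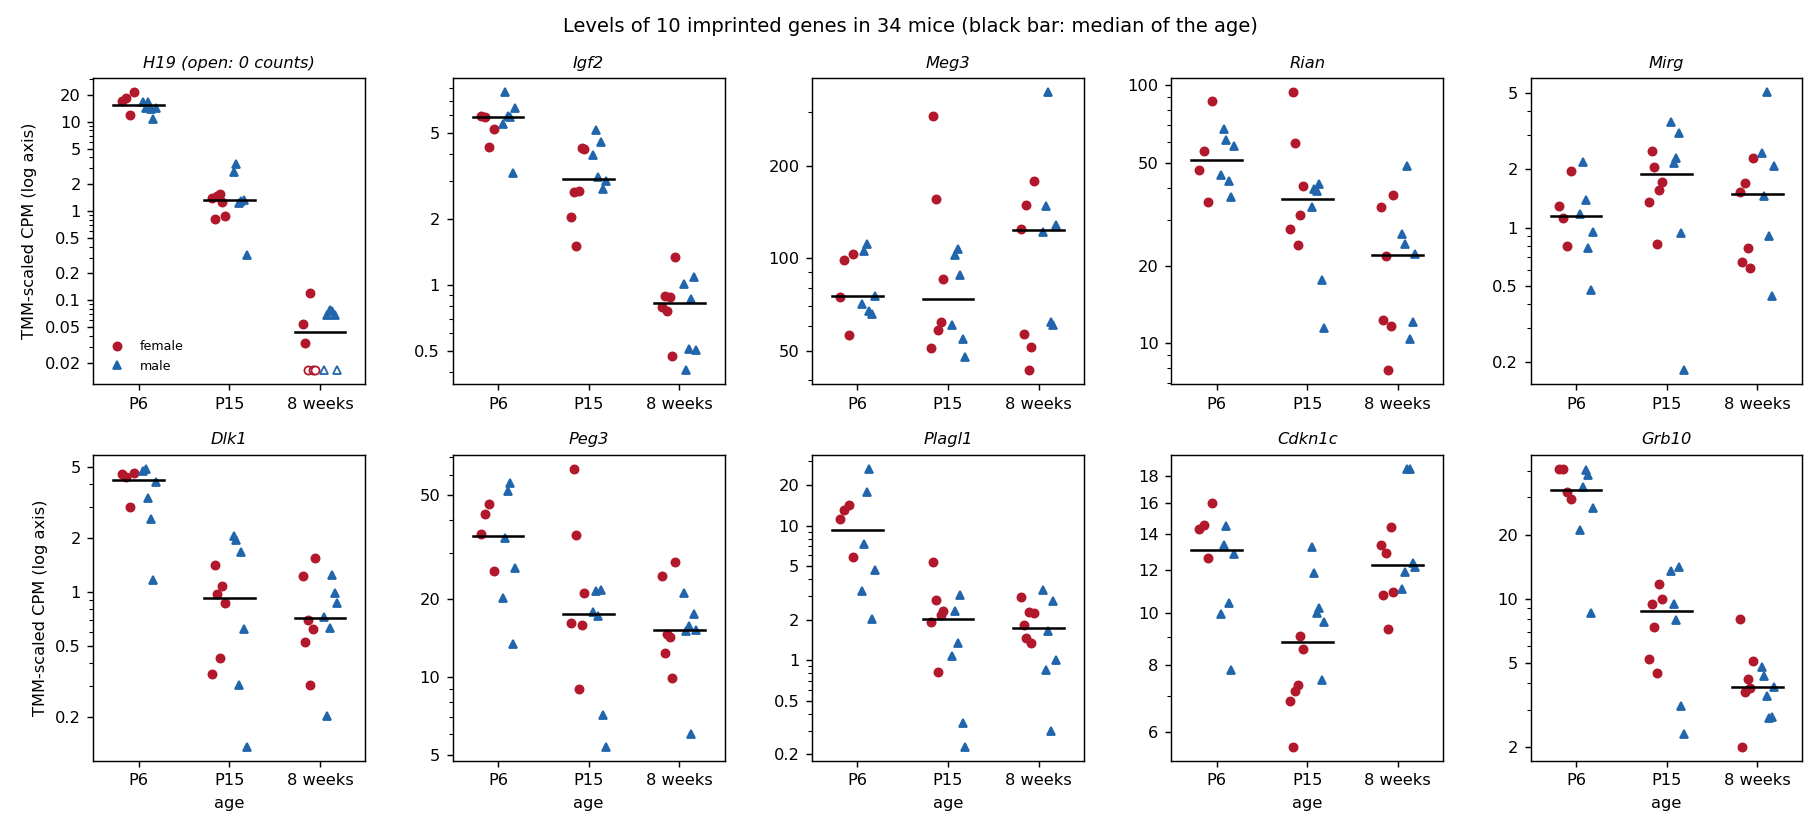
Each panel plots the TMM-scaled CPM of 1 gene (vertical log axis) against age for 34 mice, with red circles for females, blue triangles for males and a black bar at the median of the age; open symbols stand for 0 counts. H19 separated all 3 ages without overlap, Igf2 separated 8 weeks from both younger ages, and Meg3 and Mirg overlapped widely.

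**Figure D3:**
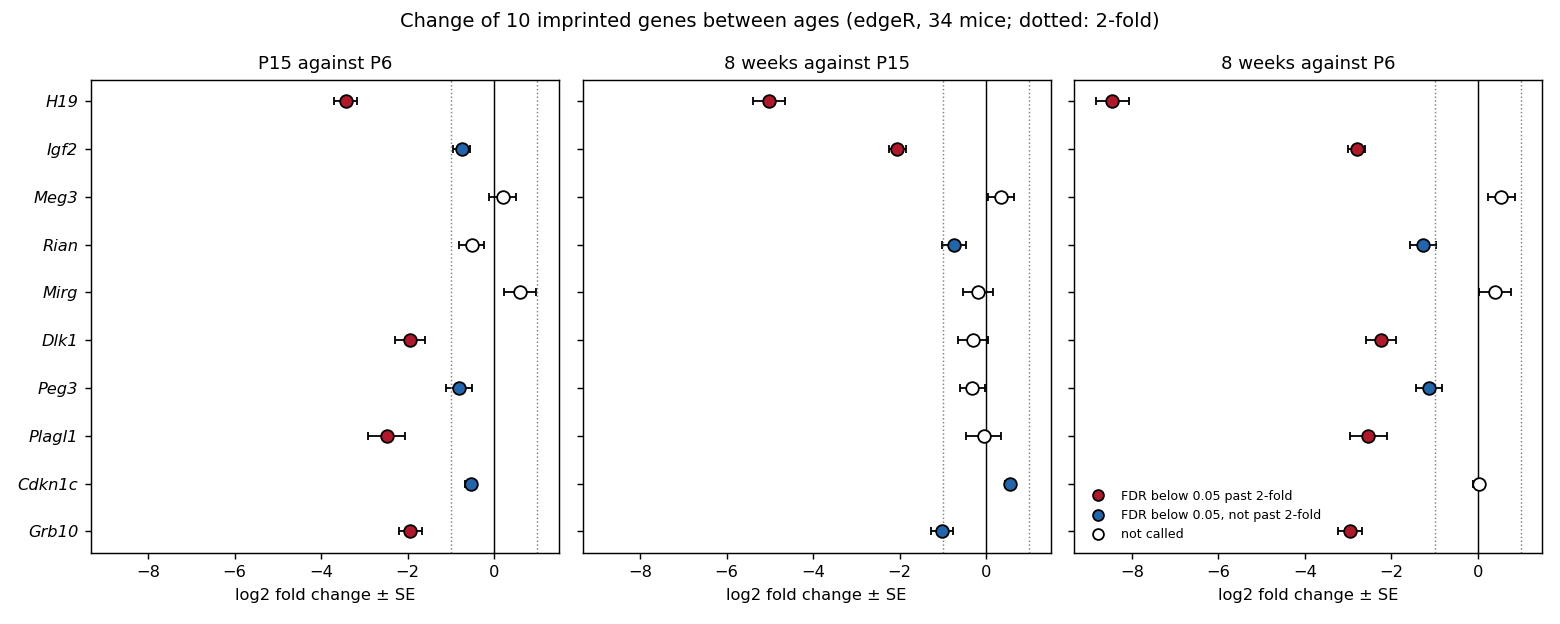
Each panel plots log2FC (horizontal axis, with its standard error as a bar) of the 10 genes in 1 comparison of ages, filled red where the change passed 2-fold at FDR below 0.05, blue where it passed FDR below 0.05 alone, and white where it was not called. The points reached from -8.46 (H19, 8 weeks against P6, which depends on the prior count because the adult level was near 0) to 0.59 (Mirg, P15 against P6), and the dotted lines mark 2-fold.

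H19 had the most negative log2FC of the 10 genes in each comparison of ages, with an adult level near the limit of detection. H19 is a long noncoding RNA of chr7:142575529-142578143 on the minus strand (GRCm38), and a microRNA, miR-675, is cut from it. It ranged from 10.8 to 21.3 CPM at P6 (median 15.4), from 0.319 to 3.34 at P15 (median 1.31) and from 0 to 0.121 at 8 weeks (median 0.0439). The lowest P6 mouse was therefore above the highest P15 mouse, and the lowest P15 mouse above the highest 8-week mouse. Levels that did not overlap and were lower at the older age were found in 7.72% of all genes tested for P15 against P6, 1.72% for 8 weeks against P15 and 14.8% for 8 weeks against P6. No member was higher without overlap, where 5.25%, 1.65% and 14.8% of all genes were. At 8 weeks the 12 libraries together held 15 H19 counts, 5 mice had none and 11 had 3 or fewer. The CPM of the counts pooled over the mice of an age was 11.5 times higher at P6 than at P15 (95% interval of the ratio 10.5 to 12.5), 36.5 times higher at P15 than at 8 weeks (21.9 to 65.7) and 418 times higher at P6 than at 8 weeks (253 to 747). These intervals cover counting error alone. The fitted log2FC was -3.44 ± 0.27 (SE; edgeR FDR = 1.14e-12) from P6 to P15 and -5.02 ± 0.38 (edgeR FDR = 3.04e-12) from P15 to 8 weeks. The latter and the fitted -8.46 from P6 to 8 weeks depend on the count added to libraries at 0. The progenitor markers fell over the same intervals, and their part in the H19 result was not tested.

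RefSeq (GRCm38.p6) places both mature arms of miR-675 inside H19, and they are shown because the transcript of H19, the gene with the most negative log2FC, is their source. Capitals mark the seed, bases 2 to 8.
mmu-miR-675-5p: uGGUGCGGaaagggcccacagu
mmu-miR-675-3p: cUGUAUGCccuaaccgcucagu
They lie at chr7:142577112-142577133 and chr7:142577078-142577099 on the minus strand, and their own levels were not analysed here.

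Igf2, the insulin-like growth factor made in most growing fetal tissues, fell in both intervals, as H19 did, and passed 2-fold only in the second. It lies at chr7:142650766-142666816 on the minus strand. Levels ranged from 3.26 to 7.66 CPM at P6 (median 5.92), from 1.51 to 5.15 at P15 (median 3.07) and from 0.406 to 1.34 at 8 weeks (median 0.830). The 2 younger ages overlapped, whereas each of the 12 adult mice was below each younger mouse. The log2FC was -0.75 ± 0.19 (edgeR FDR = 0.00101) from P6 to P15, which did not pass 2-fold, and -2.05 ± 0.20 (edgeR FDR = 5.95e-10) from P15 to 8 weeks, which did. Fibroblast and leptomeningeal markers fell in the same order, with 3 of 6 called lower from P6 to P15 and 4 of 6 from P15 to 8 weeks, and their part in the Igf2 result was not tested. In GENCODE M21, 62.8% of the exon bases of Igf2 also belong to Gm49394, a protein-coding gene model on the same strand with its own row, and fragments on shared bases are not assigned to either gene under the counting mode used, so the Igf2 values come from 2.13 kb of its exons. Igf2 also contains miR-483, whose mature arms are shown because, like miR-675, they lie in the transcript of a gene that fell.
mmu-miR-483-5p: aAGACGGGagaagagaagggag
mmu-miR-483-3p: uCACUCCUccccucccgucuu

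The balance between the partners of this locus also changed. There were 1.88 to 4.11 H19 counts per Igf2 count at P6 (median 2.84) and 0.106 to 0.983 at P15 (median 0.433), so that every P6 mouse had more H19 than Igf2 counts and every P15 mouse had fewer. Since 62.8% of Igf2 exon bases and 3.41% of those of H19 are shared, more or fewer refers to counts and not to transcripts. The mean log2 ratio was 1.47 ± 0.32 (SD, n = 10) at P6 and -1.31 ± 0.90 (SD, n = 12) at P15, a difference of -2.79 (two-sided test over 100000 permutations of the ages, p = 1e-05, which is the smallest value possible with them, and 2.3e-05 after Benjamini-Hochberg adjustment over 7 ratio tests chosen after the data were seen). A ratio within a library does not depend on library size, and the ratio at 8 weeks was not tested because of the H19 zeros. Within an age, H19 and Igf2 did not vary together by the test used: Pearson's r was 0.50 at P6 (permutation p = 0.137, adjusted over 15 correlations 0.206) and 0.22 at P15 (permutation p = 0.492, adjusted 0.568), with Spearman's rho of 0.30 (permutation p = 0.409) and 0.056 (permutation p = 0.867), and r was 0.35 and -0.025 without the 2 mice farthest from the median of H19.

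Meg3 (chr12:109541001-109571726), Rian (chr12:109603940-109661716) and Mirg (chr12:109729764-109749460) are noncoding RNAs in a row on the plus strand. Rian fell with age, whereas neither Meg3 nor Mirg was called in a comparison. Small RNA models inside them share 1.5%, 3.42% and 5.03% of their exon bases. Meg3 ranged from 56.2 to 111 CPM at P6 (median 75.0), from 47.8 to 291 at P15 (median 73.6) and from 43.1 to 347 at 8 weeks (median 123). Its log2FC was 0.19 ± 0.31 (edgeR FDR = 0.601) from P6 to P15 and 0.54 ± 0.31 (edgeR FDR = 0.117) from P6 to 8 weeks, and neither was called. The SD of Meg3 was 19.6 CPM around a mean of 82.8 at P6 (n = 10), 68.7 around 97.0 at P15 (n = 12) and 84.2 around 122 at 8 weeks (n = 12). Much of the spread at the older ages came from 1 library each, since the SD was 32.9 CPM at P15 without female 2 and 48.0 CPM at 8 weeks without male 3, and the spreads were not tested against each other. Per kilobase of exon that can be counted, Meg3 at a median of 6.92 RPKM was the highest of the 10 genes at 8 weeks, where Cdkn1c was at 6.02 and H19 at 0.0185. This order is one of medians, and the Meg3 levels at 8 weeks fell into separate sets, described below.

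Rian, the host of a long run of box C/D small nucleolar RNAs, ranged from 35.3 to 86.9 CPM at P6 (median 51.1), from 11.4 to 93.7 at P15 (median 36.2) and from 7.87 to 48.7 at 8 weeks (median 22.0). The levels of neighbouring ages overlapped, with 1 P15 mouse above every P6 mouse. From P6 to 8 weeks Rian fell (log2FC -1.27 ± 0.29, edgeR FDR = 2.32e-04), without passing 2-fold in glmTreat (FDR = 0.222). The fall from P15 to 8 weeks was called (log2FC -0.75 ± 0.28, edgeR FDR = 0.0261) and the difference from P6 to P15 was not (log2FC -0.52 ± 0.29, edgeR FDR = 0.114), but both calls turned on 1 library. Without P15 female 2, the log2FC of Rian was -0.72 (FDR = 0.0274) from P6 to P15 and -0.60 (FDR = 0.0628) from P15 to 8 weeks. In this last interval 5 of the 6 neuronal markers also fell (median log2FC of the 6 -1.29), and their part in the Rian result was not tested. That mouse had the highest Meg3, Rian, Peg3 and Plagl1 of its age, the lowest sums of microglial (9737 CPM) and endothelial markers (82.3 CPM) and the highest sum of astrocyte markers (6250 CPM), and the part of these in its levels was not tested.

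Mirg, the host of microRNAs at the far end of the cluster, was much lower, at 0.475 to 2.18 CPM at P6 (median 1.15), 0.182 to 3.54 at P15 (median 1.90) and 0.444 to 5.02 at 8 weeks (median 1.496). None of the 3 comparisons was called, with log2FC of 0.59 ± 0.37 (edgeR FDR = 0.170), -0.19 ± 0.34 (edgeR FDR = 0.659) and 0.39 ± 0.37 (edgeR FDR = 0.340).

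The ratio of Rian to Meg3 counts within a library therefore declined with age. There were 0.555 to 0.845 Rian counts per Meg3 count at P6 (median 0.630), 0.239 to 0.557 at P15 (median 0.401) and 0.140 to 0.272 at 8 weeks (median 0.191). P6 and P15 met only at their edges, and every 8-week mouse was below every P6 mouse. The mean log2 ratio fell by 0.66 from P6 to P15 and by 1.09 from P15 to 8 weeks (two-sided permutation tests, p = 1e-05 and 2e-05, adjusted over the 7 ratio tests 2.3e-05 and 3.5e-05). Mirg counts per Meg3 count had medians of 0.0134, 0.0206 and 0.0126 at the 3 ages, and no difference between ages passed the test (adjusted permutation p of 0.307, 0.186 and 0.637). For Rian to Meg3 the log2 difference from P6 to 8 weeks was -1.75, and it lay between -1.77 and -1.71 without P6 male 5, 8-week male 3 or any of the P6 females in turn.

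**Figure D4:**
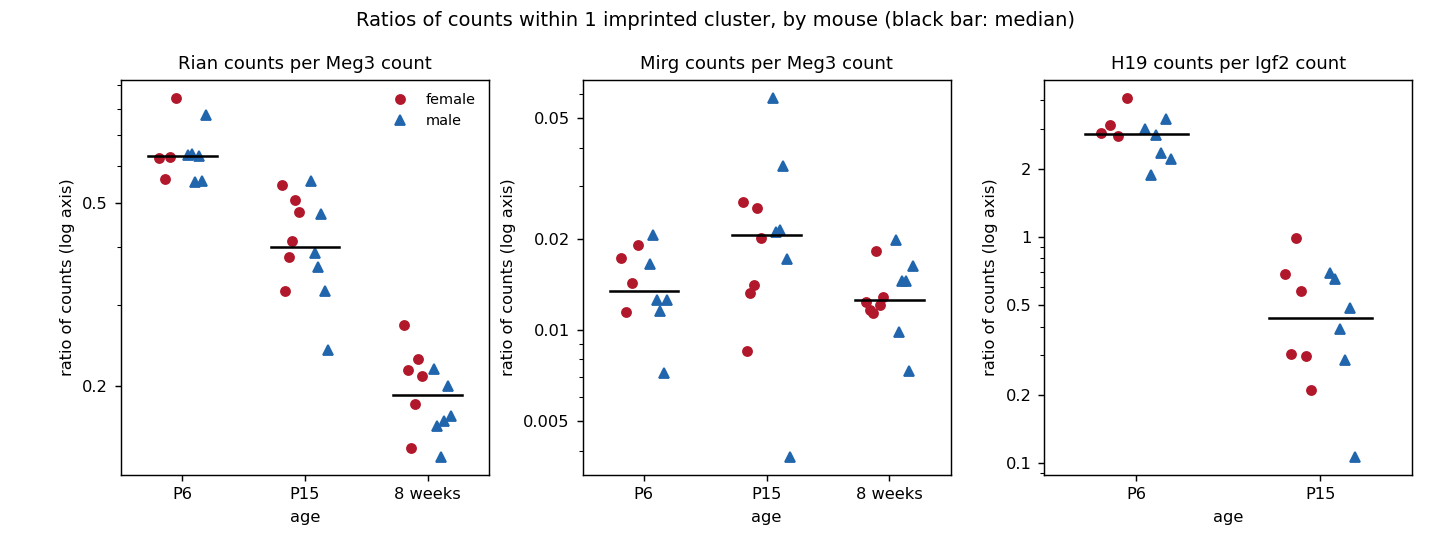
Each panel plots the ratio of counts of a pair of genes of 1 imprinted cluster in the same library (vertical log axis) against age, with 1 point per mouse and a black bar at the median. Rian per Meg3 stepped down from a median of 0.630 to 0.401 and 0.191, Mirg per Meg3 did not, and H19 per Igf2 went from 2.84 to 0.433; its 8-week values are not drawn.

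At P6 each pair of the 3 RNAs varied together from mouse to mouse, and at P15 the pairs with Rian did. At P6 Pearson's r of log2 CPM was 0.87 for Meg3 and Rian (permutation p = 0.00114, adjusted over 15 correlations 0.00342), 0.77 for Meg3 and Mirg (permutation p = 0.00838, adjusted 0.0157) and 0.83 for Rian and Mirg (permutation p = 0.00329, adjusted 0.00705). Spearman's rho for these pairs was 0.94, 0.83 and 0.84 (permutation p of 0.00028, 0.00486 and 0.00381), and r without the 2 farthest mice was 0.89, 0.71 and 0.82. At P15 r was 0.89 for Meg3 and Rian (permutation p = 4e-05, adjusted 0.0003) and 0.80 for Rian and Mirg (permutation p = 0.00185, adjusted 0.00462), and 0.79 and 0.69 without the 2 farthest mice, with rho of 0.91 (permutation p = 0.00019) and 0.75 (permutation p = 0.00719). Meg3 and Mirg at P15 had r of 0.52 (permutation p = 0.0886, adjusted 0.148) and rho of 0.69 (permutation p = 0.0173). The sums of neuronal markers also differed between these mice, from 276 to 926 CPM at P6 and from 89.5 to 693 CPM at P15. Their part in these correlations was not tested. Pairs of genes from outside imprinted clusters were not correlated, so the values have no background.

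At 8 weeks the mice fell into separate sets, so no correlation over all 12 is given. For Meg3, 5 mice lay between 43.1 and 62.0 CPM and 7 between 122 and 347, with none between. The same 5 mice (females 2, 4 and 5, and males 4 and 5) were the lowest for Rian, at 7.87 to 12.3 CPM against 21.8 to 48.7 in the other 7, and for Mirg, at 0.444 to 0.901 CPM against 1.46 to 5.02. Both sexes were in each set, and the labels name no batch. The neuronal markers parted the same mice, with sums of 48.4 to 86.7 CPM in the 5 and 110 to 212 CPM in the other 7. Of these 6 markers, 4 did not overlap between the sets (Syt1, Snap25, Stmn2 and Rbfox3), and Nefl and Tubb3 did. Of the 11 lists of cell type markers, this was the only one whose sums did not overlap, and its part in the split was not tested. Because the sets were read from the levels of these RNAs, no correlation is given within them. The split was seen in the data and was not tested. The gap was looked for with the highest mouse, male 3, set aside. For Mirg that mouse, at 5.02 CPM, stood farther from the next (2.43 CPM) than the sets from each other (0.901 and 1.46 CPM). For Meg3 it was at 347 CPM and the next mouse at 178 CPM.

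**Figure D5:**
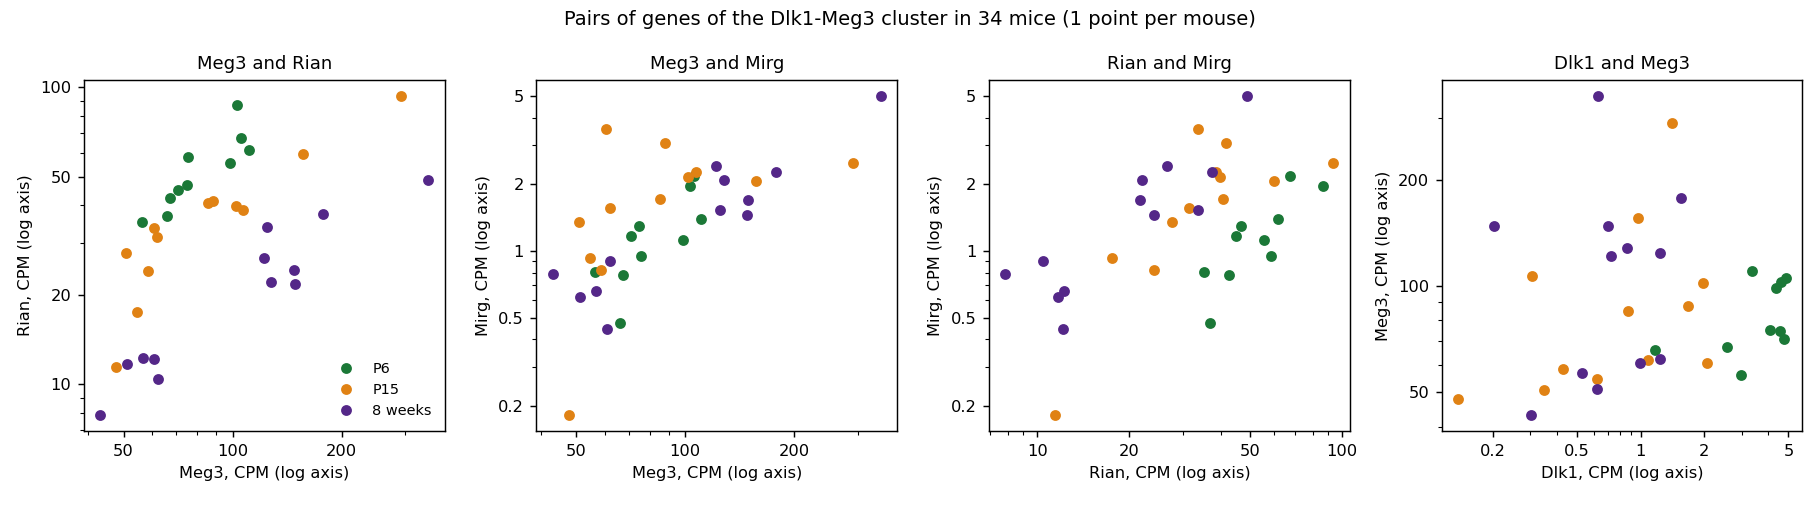
Each panel plots the CPM of 1 gene of the Dlk1-Meg3 cluster against that of another in 34 mice, both on log axes, coloured by age. At like Meg3 levels most P6 mice (green) had more Rian than P15 mice (orange) and most of these more than 8-week mice (purple), and a gap in Meg3 between 62.0 and 122 CPM parts the 8-week mice.

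The mature microRNAs that RefSeq places inside these hosts numbered 3 for Meg3, 6 for Rian and 26 for Mirg. Those shown are the arms of a microRNA within Meg3 and within Rian, and the only arms in the set of hosts that share a seed (GGUUGCC), miR-453 and miR-496a-5p, both in Mirg. Capitals again mark bases 2 to 8.
mmu-miR-770-5p: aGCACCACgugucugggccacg
mmu-miR-770-3p: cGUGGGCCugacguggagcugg
mmu-miR-370-5p: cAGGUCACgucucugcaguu
mmu-miR-370-3p: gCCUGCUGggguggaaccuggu
mmu-miR-453: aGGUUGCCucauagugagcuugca
mmu-miR-496a-5p: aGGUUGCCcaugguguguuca
MiR-770 lies in Meg3 at chr12:109563710-109563765, miR-370 in Rian at chr12:109618270-109618326, and the pair with a shared seed in Mirg at chr12:109735669-109735692 and chr12:109739132-109739152. These sequences name what the hosts carry. The small RNA libraries were not analysed here, so no host level is set beside a microRNA level.

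Dlk1, a transmembrane protein related to Notch ligands that is known from preadipocytes and neural progenitors, is the protein-coding gene at the other end of this cluster, at chr12:109452823-109463336. It ranged from 1.17 to 4.87 CPM at P6 (median 4.24), from 0.137 to 2.06 at P15 (median 0.922) and from 0.203 to 1.54 at 8 weeks (median 0.713). The fall from P6 to P15 passed 2-fold (log2FC -1.94 ± 0.35, edgeR FDR = 1.44e-05; glmTreat FDR = 0.0138), but not by DESeq2's test against 2-fold (FDR = 0.0855), and no further change was called from P15 to 8 weeks (log2FC -0.30 ± 0.34, edgeR FDR = 0.478). Dlk1 and Meg3, whose transcription comes from opposite parental chromosomes, did not pass the test for variation together at the younger ages, with r of 0.48 at P6 (permutation p = 0.152, adjusted 0.208) and 0.43 at P15 (permutation p = 0.166, adjusted 0.208). Spearman's rho was 0.55 and 0.45 (permutation p of 0.104 and 0.142), and r without the 2 farthest mice was 0.35 and 0.43.

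Plagl1, also called Zac1, encodes a zinc-finger transcription factor that is known to act on other imprinted genes, and it lies at chr10:13060504-13131694. It ranged from 2.03 to 26.3 CPM at P6 (median 9.23), from 0.228 to 5.33 at P15 (median 2.04) and from 0.300 to 3.31 at 8 weeks (median 1.73). The P6 mice were widely spread, and P6 males 1, 5 and 6 were below the highest P15 mouse. These males had the lowest progenitor sums of the P6 mice compared (710, 661 and 963 CPM against 1272 to 2037). Their neuronal sums were also the lowest (276, 307 and 423 CPM against 592 to 926). Their microglial sums were the highest (7404, 8502 and 6918 CPM against 4654 to 5899). All 9 progenitor markers fell from P6 to P15, and the part of these markers in the Plagl1 result was not tested. Plagl1 fell past 2-fold from P6 to P15 (log2FC -2.49 ± 0.42, edgeR FDR = 7.18e-06), and from P15 to 8 weeks the log2FC was -0.050 ± 0.40 (edgeR FDR = 0.929).

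Peg3, a zinc-finger protein made mainly in brain and in embryonic and placental tissue, lies at chr7:6703892-6730431 on the minus strand. It ranged from 13.3 to 55.9 CPM at P6 (median 34.9), from 5.37 to 63.1 at P15 (median 17.4) and from 6.01 to 27.8 at 8 weeks (median 15.1). The fall from P6 to P15 was smaller than that of Plagl1 (log2FC -0.82 ± 0.30, edgeR FDR = 0.0170), the next interval was not called (log2FC -0.32 ± 0.28, edgeR FDR = 0.363), and the fall from P6 to 8 weeks did not pass 2-fold (log2FC -1.14 ± 0.30, edgeR FDR = 0.0010; glmTreat FDR = 0.424).

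Since PLAGL1 is known to bind GC-rich DNA, the windows from 250 bases before to 50 bases after each RefSeq start of the 10 genes were searched for GGGGCCCC, which reads the same on both strands, and for GGGCGG on both strands. There were 13 windows of 8 of the 10 genes, H19 and Cdkn1c not being searched. GGGGCCCC was found in 1 of the 13 windows, that of Peg3, and in 1.08% of all 32851 windows. GGGCGG was found in 4 of the 13 windows, against 35.7% of all. The Peg3 window, chr7:6730370-6730669 on the minus strand (GRCm38.p6), is shown because it alone held the first motif, which is in capitals.
Peg3: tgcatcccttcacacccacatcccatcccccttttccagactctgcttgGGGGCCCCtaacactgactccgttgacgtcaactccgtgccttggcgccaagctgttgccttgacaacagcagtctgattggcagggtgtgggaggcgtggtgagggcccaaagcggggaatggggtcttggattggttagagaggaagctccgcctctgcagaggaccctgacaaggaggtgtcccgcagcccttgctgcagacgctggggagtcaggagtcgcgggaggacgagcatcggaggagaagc
A match describes letters in a window and is not evidence of binding.

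Cdkn1c and Grb10, both known to limit growth, fell from P6 to P15 and moved in opposite directions from P15 to 8 weeks. Cdkn1c encodes the cyclin-dependent kinase inhibitor p57 and lies at chr7:143458339-143461050 on the minus strand. It ranged from 7.82 to 16.0 CPM at P6 (median 13.1), from 5.63 to 13.2 at P15 (median 8.83) and from 9.35 to 18.5 at 8 weeks (median 12.3). Cdkn1c fell from P6 to P15 (log2FC -0.55 ± 0.12, edgeR FDR = 2.23e-04) and rose from P15 to 8 weeks (log2FC 0.56 ± 0.11, edgeR FDR = 1.89e-04), the only rise that was called among the 10 genes. Neither step passed 2-fold, and the level at 8 weeks did not differ from that at P6 beyond its error (log2FC 0.013 ± 0.12, edgeR FDR = 0.924). Relative to the mean, its mice differed least among the 10 genes at each age, with an SD of 2.53 CPM around 12.7 at P6 (20.0%), 2.20 around 8.92 at P15 (24.7%) and 2.88 around 13.03 at 8 weeks (22.1%).

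Grb10, an adaptor protein that binds the insulin and IGF1 receptors and dampens their signal, lies at chr11:11930508-12038683 on the minus strand. It ranged from 8.55 to 40.7 CPM at P6 (median 32.6), from 2.32 to 14.1 at P15 (median 8.72) and from 2.01 to 8.01 at 8 weeks (median 3.84). All 12 adult mice were below the lowest P6 mouse, P6 male 5, and neighbouring ages overlapped. Grb10 fell past 2-fold from P6 to P15 (log2FC -1.94 ± 0.27, edgeR FDR = 2.31e-07) and again from P15 to 8 weeks (log2FC -1.02 ± 0.26, edgeR FDR = 0.00171), the second fall not passing 2-fold in glmTreat.

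A few libraries stood at the edge of their age for several of the genes. P15 male 6 was the lowest P15 mouse for 8 of the 10 genes and P6 male 5 the lowest P6 mouse for 8 of the 10. The share of all genes tested that were lowest in these 2 libraries is not given here, so these counts have no background. Both had the highest microglial marker sum of their age (18955 and 8502 CPM) and the lowest sums of astrocyte (707 and 338 CPM), progenitor (124 and 661 CPM), pericyte and smooth muscle (133 and 130 CPM) and fibroblast markers (76.3 and 78.5 CPM). P15 male 6 was also lowest for neuronal markers (89.5 CPM), and P6 male 5 for those of the oligodendrocyte lineage (311 CPM) and choroid plexus (10.03 CPM) and highest for those of monocytes and border macrophages (1577 CPM). At 8 weeks male 3 was the highest for 4 of the 10 genes, with 347 CPM of Meg3, and had the highest sums of neuronal (212 CPM) and oligodendrocyte lineage markers (1635 CPM) of that age and the lowest sums of astrocyte (1452 CPM), pericyte and smooth muscle (176 CPM) and fibroblast markers (15.9 CPM). The part of these markers in the levels was not tested. The number of genes that fell past 2-fold was 4, 2 and 5 in the 3 comparisons, and it was 4, 2 and 5 again without P15 female 2, P6 male 5 or 8-week male 3 in turn. With P6 female 6 included it was 4, 2 and 6, the gene gained being Rian. P6 female 6 was above every other P6 mouse for 9 of the 10 genes and below them for none, where 29.0% of all genes tested were above and 31.5% below.

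Among the 17612 genes tested, those whose course over the 34 mice was most like that of each member were found by the smallest root mean square (RMS) difference of log2 CPM, each gene centred on its own mean. For Igf2 they were the collagen genes Col1a1 (RMS 0.45) and Col5a1 (0.48) and the matrix gene Emilin1 (0.49), of which Col1a1 is a marker on the fibroblast list. For H19 they were Ccnb1 (0.79), Pclaf (0.81) and Spc24 (0.89), genes of DNA replication and cell division, with no close match. For Meg3 they were Trank1 (0.34), Scn1a, a sodium channel subunit of neurons (0.48), and Rims1, a protein of the presynaptic active zone (0.48). For Rian they were Myt1l, a neuronal transcription factor (0.30), Nrxn3, a synaptic adhesion protein (0.31), and Nalcn, a sodium leak channel (0.32). Mirg was most like Rimbp2 (0.49), Me3 (0.52) and Pou3f1 (0.53). Dlk1 was most like Smoc1, Acot1 and the imprinted Nnat (all 0.62). Peg3 was most like Akap6, Enah and Nckap1 (0.27 to 0.28), Plagl1 like Armcx4, Rnd3 and Dach1 (0.51 to 0.55), Grb10 like Tspan6, F2r and Nck2 (0.34 to 0.39) and Cdkn1c like Lbh, Bola1 and Gstp1 (0.24 to 0.25). Likeness of course is a description over mice that share age, and it was given no test.

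Females and males were compared at each age, since the design balanced the sexes. Of the 10 genes none differed between sexes at P6, P15 or 8 weeks by edgeR, limma-voom or DESeq2 (FDR below 0.05), where edgeR called 0.0511%, 0.0681% and 0.114% of all genes. At an unadjusted p below 0.05, edgeR gave 0, 2 and 0 of the 10 genes, limma-voom 1, 1 and 0, and DESeq2 0, 2 and 0. The share of all genes below that p is not given here, so these counts have no background and no sex difference is read from them. At P15 the 2 genes given by edgeR were Cdkn1c, higher in males (log2FC 0.48 ± 0.16, FDR = 0.252), and Peg3, lower in males (log2FC -0.82 ± 0.40, FDR = 0.272). Of the interaction of sex and age, no gene of the 17612 was called (0%), and Cdkn1c had the lowest p of the 10 genes (edgeR FDR = 0.406).

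Other imprinted genes gave a wider view of the class. Of 43 listed, 37 were tested, and the 6 that were not are Nespas, Phlda2, Calcr, Rtl1, Dio3 and Klf14, 2 of which (Rtl1 and Dio3) belong to the Dlk1-Meg3 cluster. From P6 to P15, 17 of the 37 fell and 7 rose, with a median log2FC of -0.35, beside 31.4% and 30.4% of all genes tested that fell and rose. From P15 to 8 weeks 13 fell and 7 rose (median -0.22), beside 23.9% and 24.0%. From P6 to 8 weeks 19 fell and 8 rose (median -0.52), beside 36.6% and 37.8%, with 10 falls and 2 rises past 2-fold, beside 12.4% and 11.5%. The 5 lowest fitted log2FC from P6 to 8 weeks included those of Mest, a paternally expressed growth gene (-4.32), Usp29, which shares its promoter region with Peg3 (-2.78), and Nnat, a small membrane protein of developing neurons (-2.76). The other 2 were of Slc38a4, an amino acid transporter, and Magel2, a gene of the Prader-Willi region, whose adult levels were near the floor and whose place in that order depends on the prior count. Slc38a4 had 246 counts over the P6 mice and 12 over the adult mice, of which 8 had none and 11 had 3 or fewer. Magel2 had 464 and 37 counts, and 8 adult mice had 3 or fewer. Mest went from 7.53 to 30.1 CPM at P6 to 0.429 to 2.16 at 8 weeks, and Nnat from 108 to 444 to 26.0 to 106. The rises past 2-fold were of Zrsr1, a splicing factor gene (log2FC 1.49), which went from 6.85 to 9.19 CPM at P6 to 20.0 to 28.1 at 8 weeks, and Cd81, a tetraspanin made by microglia (log2FC 1.21), which went from 571 to 926 to 1462 to 2370.

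Genes that act with Igf2 and Grb10 in insulin-like growth factor signalling were listed as partners, and 17 of 18 were tested (Igfals was not). From P6 to P15 8 fell and 2 rose, beside 31.4% and 30.4% of all genes tested, and from P15 to 8 weeks 7 fell and 2 rose, beside 23.9% and 24.0%. From P6 to 8 weeks 10 fell and 2 rose, beside 36.6% and 37.8%, and 7 falls and no rise passed 2-fold, beside 12.4% and 11.5%. The medians of log2FC were -0.22, -0.46 and -0.87. Of the ligands, Igf1, which microglia make in early life, fell from 86.7 to 219 CPM at P6 (median 134) to 10.6 to 21.9 at 8 weeks (median 16.9), with log2FC of -2.99 from P6 to 8 weeks. The RNA-binding proteins Igf2bp3 and Igf2bp1, which bind Igf2 mRNA, both fell past 2-fold from P6 to 8 weeks. Igf2bp3 went from 57.2 to 97.7 CPM to 0.192 to 1.26 (log2FC -6.91), while Igf2bp1 went from 579 counts over the P6 mice to 10 over the adult mice, all 12 of which had 3 or fewer and 8 none, so that no fold is given for it. Irs1, a docking protein of both receptors, and Igfbp4, a secreted binding protein, had log2FC of -2.04 and -1.98. Igf2r, the scavenger receptor that clears Igf2 and is itself imprinted, stands on both lists and went from 9.43 to 29.5 CPM at P6 to 6.23 to 18.4 at 8 weeks (log2FC -1.21, not past 2-fold). Igf1r, the receptor for both ligands, went from 77.8 to 120 CPM at P6 to 66.2 to 99.3 at 8 weeks (log2FC -0.29, edgeR FDR = 0.00359).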

How the data were processed

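Each mouse gave 1 mRNA library of CD45+ cells. The submitters' processing notes name fastp 0.20.0 without its role, and the paper describes it for the small RNA reads. The authors aligned reads to GRCm38/mm10 with STAR, counted fragments per gene by strand with featureCounts, and deposited raw counts for 35 mice, which were used as deposited. Groups of mice follow the age and sex that the labels give. Genes were named from GENCODE M21, which named 55141 of 55401 identifiers and may not be the release the authors used. MicroRNA and start-site sequences are RefSeq's (GRCm38.p6).

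The main tests were made with edgeR 4.0.16 in R 4.3.3: TMM scaling, a minimum of 0.5 CPM in at least 5 mice, a robust quasi-likelihood fit (glmQLFit) with 6 means, 1 per age and sex, glmQLFTest for any change and glmTreat for changes past 2-fold. The study's limma-voom (limma 3.58.1) and DESeq2 1.42.0 were alternatives, and Python 3.11.15 gave permutation tests. Log2 CPM uses a prior count of 2. RPKM is CPM per kilobase of exon not shared with another gene on the strand. P-values measure the spread between single libraries of different mice. The members and lists were chosen with earlier results of these data known, and the genes named are all members, up to 5 in each direction past 2-fold from P6 to 8 weeks in 2 lists, the 3 nearest genes of each member and the markers; others were named after their values were seen. Within-group libraries were not copies of each other, with a lowest chi-square per gene of 11.8 over 85 pairs. Scripts were tested on simulated data. A marker of the lists is not reported here and was left out of the sums.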

Additional observations from a re-analysis of the deposited data

Results flagged for a closer look

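P6 female 6, the mouse left out of the comparisons, carried high levels of these genes. It had 29.0 CPM of H19, 10.6 of Igf2, 261 of Meg3, 183.5 of Rian, 3.07 of Mirg, 11.3 of Dlk1, 83.0 of Peg3, 32.1 of Cdkn1c and 55.9 of Grb10, each above all 10 other P6 mice, so that 9 of the 10 genes were at the top. Of all genes tested, 29.0% were above and 31.5% below every other P6 mouse in this library. Plagl1, at 14.3 CPM, lay within their range. Relative to the median of the other P6 mice, Rian was 3.59 and Meg3 3.47 times higher and Plagl1 1.55 times higher. Its sums of microglial (2124 CPM) and of monocyte and border macrophage markers (430 CPM) were below the lowest other P6 mouse (4654 and 724 CPM). Its sums of oligodendrocyte lineage (2249.5 CPM), neuronal (1533 CPM), progenitor (2323 CPM), astrocyte (1624 CPM), fibroblast (402 CPM) and choroid plexus markers (295 CPM) were above the highest other P6 mouse (902, 926, 2037, 856, 293 and 186 CPM). The part of these in its levels was not tested.

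In 60 checks of a gene within an age and sex group for a single mouse far from the rest (Dixon's test at 95%, which chance passes in about 1 of 20 groups), 2 mice stood apart. The first was 8-week male 3, with 347 CPM of Meg3 where the other 5 males lay between 60.7 and 148 CPM. The second was P6 female 3, with 2.98 CPM of Dlk1 where the other 3 females lay between 4.38 and 4.61 CPM. No cause was tested for either.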

How the results depend on the processing

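Of 510 values of log2FC recomputed under 17 alternatives for the 10 genes and 3 comparisons of ages, 490 kept their direction and their side of FDR 0.05, and no change that was called turned its direction. Without the fold threshold, 7 genes fell from P6 to P15, and 4 fell and 1 rose from P15 to 8 weeks, in place of 4, 2 and 0 past 2-fold; other alternatives gave 3 (DESeq2, without Dlk1) to 4, 2, and 5 to 6 (all 35 mice, with Rian) falls in the 3 comparisons. Rian from P6 to P15 was called with limma-voom (log2FC -0.61, FDR = 0.0490), with all 35 mice (-0.80, FDR = 0.0233) and without P15 female 2 (-0.72), and its fall from P15 to 8 weeks was not called without a filter (-0.75, FDR = 0.0569) or without P15 female 2 (-0.60). Values near 0 changed sign without being called. Meg3 from P6 to P15 became -0.068 with all 35 mice and ran from -0.084 (without P15 female 2) to 0.23 without single mice. Plagl1 from P15 to 8 weeks became 0.078 with limma-voom, 0.12 with the replicate block and ran from -0.069 to 0.11 (without P15 female 2) without single mice. Cdkn1c from P6 to 8 weeks became -0.14 by library size alone, -0.019 with a minimum of 1 CPM, -0.0076 with limma-voom, -0.15 with all 35 mice, and ran from -0.062 to 0.011 without single mice. The cause was not tested. Library size alone moved the median log2FC of all genes to -0.14 from P6 to P15 and to -0.10 from P6 to 8 weeks, so falls of that size are within the choice of scaling, and the member changes are read against it. The 15 correlations gave 8 that passed, and 8 to 10 under alternatives, 3 of them at 8 weeks where the mice fell into separate sets. All 39 ratio values recomputed with a mouse of a compared age left out or added stayed on their side of the threshold. Same-numbered mice of 1 sex were not treated as paired. Over 32 such pairs across ages the correlation of their deviations ran from -0.30 to 0.57 (median 0.079) and exceeded 0.1 in 13. The median over 160 other-numbered pairs was -0.013, and the 2 medians were not tested against each other. The replicate block gave 4, 2 and 5 falls past 2-fold. At this depth H19 at 8 weeks was at or under the 3-count floor in 11 of 12 mice.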
